A study of Mus musculus with 6 samples.

Results

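The genes described here are 10 genes of melanoma dedifferentiation and invasion, namely Axl, Ngfr, Zeb1, Sox9, Twist1, Snai1, Snai2, Tead1, Ccn1 and Cdh2. They were listed by name, and their members in the data are the H3K27ac peaks that overlapped one of the genes or the 20 kb on either side of it. When the 4 peak lists were merged, 166 of 182956 regions met this rule. The peaks came from B16 F10 cells, a mouse melanoma line, which had been seeded at 100 cells per cm2 and were taken on day 5 of the progressive pigmentation model. All groups shared this culture. Cells of low pigment (LP) and of high pigment (HP) had been separated by side scatter in a flow cytometer, and ChIP-seq for H3K27ac was performed on 2 replicates of each. IgG libraries of unsorted cells, 1 for each replicate number, were the authors' controls for peak calling. B16 F10 is an established line grown in culture, and the sort separated cells by light scatter and not by a lineage marker.

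H3K27ac is a histone mark found at active promoters and enhancers. Melanoma cells can leave the pigmented state for a dedifferentiated, invasive one, in which the receptor tyrosine kinase Axl and the nerve growth factor receptor Ngfr are well-known markers. Epithelial-mesenchymal transition (EMT) factors of the Snai, Zeb and Twist families bind E-box sequences and repress junction genes. Among them, Snai2 and Zeb2 are usual in melanocytes, whereas Zeb1 and Twist1 are linked to the dedifferentiated state. Tead1 is a DNA-binding partner of Yap1 at the end of the Hippo pathway, and Ccn1 encodes a matrix protein that is a classical target of this pathway. Sox9 is a neural crest factor, and Cdh2 encodes N-cadherin.

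A promoter was taken as the 3 kb on either side of the start of any transcript of the gene. The pileup of a peak counts the fragments covering its summit. All pileups below are scaled to a library of 1000000 fragments (scaled pileup) unless fragments are named. The LP libraries held 11467942 and 15353176 fragments and the HP libraries 11483830 and 14254904, with 57942 to 71529 peaks. Where a list has no peak there is no value either, and the signal may still be present below the threshold of the caller. The smallest scaled pileup called in a library was 0.351 to 0.436, or 5 to 6 fragments. Over the 12084 regions called in all 4 libraries the pileup was higher in HP, with a median log2 ratio of HP to LP of 0.92 (0.57 in replicate 1 and 1.30 in replicate 2), and between the HP replicates the median log2 ratio was 0.67. Promoters of 7 of 8 melanocyte markers had a peak in every library, and the eighth, Slc45a2, had one in 3. No promoter among 4 fibroblast, 3 keratinocyte and 3 immune markers had a peak in all 4 libraries. All 4 fibroblast markers had one in 1 to 3 libraries (Col1a1 and Pdgfra in 3), and 2 keratinocyte markers and 1 immune marker had one in 1 library. The part of such cells in the results was not tested.

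The bases just before the gene start are shown for a gene with no promoter peak (Ngfr), a gene with a single weak one (Twist1), and genes whose promoter was called in 3 or 4 libraries (Axl, Snai1 and Ccn1). The sequences are those of RefSeq on mm10 and run 5′ to 3′ on the strand of the gene. The stretches are chr11:95587736-95587948 on the minus strand for Ngfr, chr12:33957421-33957670 on the plus strand for Twist1, chr7:25788734-25788983 on the minus strand for Axl, chr2:167537945-167538194 on the plus strand for Snai1 and chr3:145649986-145650235 on the minus strand for Ccn1. Capitals mark a match, on either strand, to one of the motifs GGAATG (TEAD factors), TGANTCA (AP-1), CACCTG (an E-box of Snai and Zeb factors), CACGTG and CATGTG (E-boxes of the Mitf type) and ACAATG (Sox factors).
Ngfr: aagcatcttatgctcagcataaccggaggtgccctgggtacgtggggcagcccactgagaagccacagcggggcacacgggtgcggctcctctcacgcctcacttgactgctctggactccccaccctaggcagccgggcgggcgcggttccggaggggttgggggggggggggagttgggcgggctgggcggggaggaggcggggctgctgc
Twist1: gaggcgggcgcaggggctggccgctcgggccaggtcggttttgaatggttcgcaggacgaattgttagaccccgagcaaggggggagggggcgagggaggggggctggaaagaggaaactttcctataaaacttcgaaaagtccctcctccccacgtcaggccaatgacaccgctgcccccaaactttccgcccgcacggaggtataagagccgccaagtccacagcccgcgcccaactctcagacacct
Axl: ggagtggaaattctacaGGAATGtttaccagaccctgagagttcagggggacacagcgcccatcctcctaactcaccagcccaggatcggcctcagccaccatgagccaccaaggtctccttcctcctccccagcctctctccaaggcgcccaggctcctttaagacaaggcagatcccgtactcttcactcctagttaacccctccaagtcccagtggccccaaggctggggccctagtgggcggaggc
Snai1: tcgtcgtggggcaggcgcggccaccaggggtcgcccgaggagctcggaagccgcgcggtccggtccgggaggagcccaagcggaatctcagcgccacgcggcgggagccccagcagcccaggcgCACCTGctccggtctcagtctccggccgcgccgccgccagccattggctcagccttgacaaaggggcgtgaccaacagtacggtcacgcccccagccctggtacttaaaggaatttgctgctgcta
Ccn1: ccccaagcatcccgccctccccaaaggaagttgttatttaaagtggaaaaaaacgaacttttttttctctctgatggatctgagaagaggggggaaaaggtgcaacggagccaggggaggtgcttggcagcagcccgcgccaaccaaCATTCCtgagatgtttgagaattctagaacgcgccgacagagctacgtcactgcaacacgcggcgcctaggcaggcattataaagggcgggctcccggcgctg
The stretches of Axl and Ccn1 each held 1 match to the TEAD motif, that of Ccn1 on the opposite strand, and the stretch of Snai1 held 1 E-box CACCTG. Those of Ngfr and Twist1 held no match. In the windows of 300 bases of the RefSeq table, 14.7% of 32817 promoters held the TEAD motif and 20.2% held CACCTG, so a match is common. The GC content of these windows was 71.7% at Ngfr, 66.0% at Twist1, 70.0% at Snai1, 60.3% at Axl and 57.0% at Ccn1, against a median of 52.7% over all windows. Ngfr and Twist1 thus had little or no called acetylation at a GC-rich start, with 23 and 27 CpG in the window against a median of 7. The windows of the genes called in 3 or 4 libraries held 34 CpG at Snai1, 20 at Ccn1 and 6 at Axl. A match describes these letters only and is not evidence of binding.

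Promoter peaks separated the 10 genes into 3 sets. Snai2, Tead1, Ccn1 and Cdh2 had a promoter peak in all 4 libraries. Axl, Sox9 and Snai1 had one in both HP libraries and in LP replicate 2, and none in LP replicate 1. Zeb1 and Twist1 had a peak in LP replicate 2 only, and Ngfr had none in any library. Of 21938 protein-coding genes, 47.4% had a promoter peak in all 4 libraries, 6.4% in 3, 5.62% in 2, 12.9% in 1 and 27.7% in none. By library, 4 and 9 of the 10 genes had a promoter peak in LP against 7 and 7 in HP. Over all coding genes the shares were 53.5% and 61.6% in LP against 57.9% and 59.9% in HP. At the 10 genes, as over all coding genes, the LP replicates differed from each other by more than either did from HP. No gene of the 10 had a promoter peak in both libraries of 1 population and in neither of the other.

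**Figure D1:**
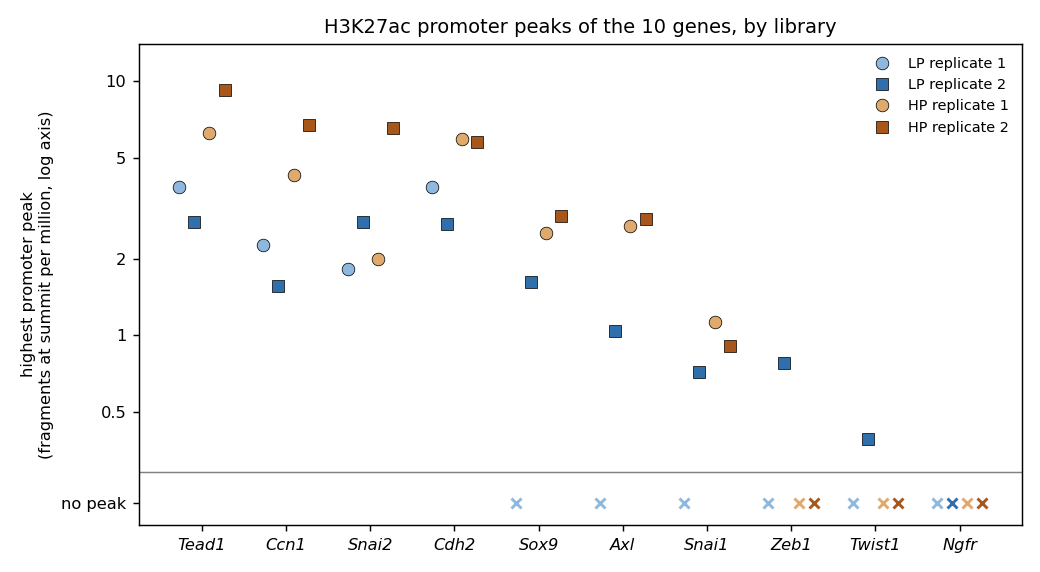
Highest promoter peak of each gene in each library, as scaled pileup (fragments at the summit in a library of 1000000) on a log axis, with crosses below the line where no peak was called. Tead1, Ccn1, Snai2 and Cdh2 have a value in all 4 libraries, and Ngfr has none. The Ccn1 values are of the region at its start in LP and of a region further upstream in HP.

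Ngfr (chr11:95568818-95587735, minus strand), a marker of the neural crest-like state, had no peak within 3 kb of its start. Its window held 0 and 2 peaks in LP against 3 and 2 in HP. They formed 6 regions, 5 of them in 1 library, and the exonic region 16.7 kb into the gene was shared by LP replicate 2 (scaled pileup 0.782) and HP replicate 2 (0.842). No region of the Ngfr window was called in both replicates of a population.

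Axl (chr7:25757273-25788705, minus strand) had a scaled promoter pileup of 1.04 in LP replicate 2 and of 2.70 and 2.88 in the HP replicates, with no peak in LP replicate 1. Both HP values lay above that of the single LP library, and they were at percentiles 33.1 and 22.7 of the genes with a promoter peak. An intronic region 6.5 kb from the start, singled out after its values were seen, was higher than the promoter in each of these libraries, with 2.87 in LP replicate 2 and 3.92 and 5.12 in HP. The 150 bases around its summit in HP replicate 2, chr7:25781698-25781847 on the minus strand, are shown since this was the highest peak within Axl.
Axl intron: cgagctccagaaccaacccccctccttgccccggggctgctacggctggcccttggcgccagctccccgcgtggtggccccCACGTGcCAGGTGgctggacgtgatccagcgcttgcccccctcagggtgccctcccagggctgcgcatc
It held CACGTG and, after 1 base, CAGGTG, which is CACCTG on the other strand. Among the 12080 summit windows of this length in regions called in all 4 libraries, 2.84% held CACGTG and 14.6% held CACCTG.

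The highest region in the Axl window did not lie at Axl. It was 2.8 kb past the end of the gene (chr7:25753729-25755312) and overlapped the promoter of the neighbouring gene Hnrnpul1, an RNA-binding protein gene. Its scaled pileup was 10.5 and 6.45 in LP against 8.71 and 20.8 in HP. The groups overlapped, with a log2 ratio of HP to LP of 0.71 ± 0.54 (SE, n = 2 and 2; adjusted p = 0.266, limma with Benjamini-Hochberg adjustment over all 12084 regions).

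Twist1 (chr12:33957671-33959829, plus strand), an EMT factor of the basic helix-loop-helix family, had 1 promoter peak, in LP replicate 2. It lay 0.16 kb past the start, with 6 fragments or a scaled pileup of 0.391, the smallest pileup called in that library. At a q-value of at most 0.01 this peak was lost, and Twist1 then had no promoter peak in any library. All 5 regions of its window were called in 1 library each, and HP replicate 2 had none.

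Zeb1 (chr18:5591860-5775467, plus strand), a zinc finger repressor of junction genes, had promoter peaks in LP replicate 2 only, 1 near the first start and 1 at an internal start 142 kb into the gene. The higher of these had 12 fragments, or a scaled pileup of 0.782, which placed Zeb1 at percentile 10.5 of the genes with a promoter peak in that library. That peak, near the first start, also overlapped promoters of the noncoding genes Gm10125 and Gm2238. Of the 20 regions over this gene of 184 kb, 18 were called in 1 library and none in more than 2. The intronic region 75.3 kb from the start was called in both HP libraries (scaled pileup 0.871 and 0.421) and in neither LP library. The lower of these values was 6 fragments. The adjacent region, 74.3 kb from the start, was called in LP replicate 2 (0.977) and HP replicate 2 (0.842).

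Sox9 (chr11:112782224-112787760, plus strand) had a scaled promoter pileup of 1.63 in LP replicate 2 and of 2.53 and 2.95 in the HP replicates. The merged region of these peaks also overlapped the promoter of the noncoding gene BC006965. As at Axl, LP replicate 1 had no promoter peak and both HP libraries were above LP replicate 2. The median over all genes with a promoter peak was also higher in HP, 4.01 and 6.66 against 2.54 in LP replicate 2. Among these genes Sox9 was at percentile 32.4 in LP replicate 2 and at 30.5 and 23.2 in HP. The other 5 regions of its window were each called in 1 library.

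Snai1 (chr2:167538195-167542814, plus strand), the Snai family member most often tied to loss of E-cadherin, had weak promoter peaks, with a scaled pileup of 0.716 in LP replicate 2 and 1.13 and 0.912 in HP. They were at percentiles 8.04 to 10.7 of the promoters with a peak. The peak of HP replicate 1 lay 0.6 kb before the start, and the region that holds the start was called in LP replicate 2 and HP replicate 2. Both also overlapped the promoter of the noncoding gene Gm11474. At a q-value of at most 0.01 the promoter peak of LP replicate 2 was lost. Snai1 then had a promoter peak in both HP libraries and in neither LP library. How many coding genes had this pattern at that cutoff was not computed.

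The region of highest pileup in the Snai1 window lay at the other end of the gene. It begins in the last bases of the 3′ UTR and runs downstream (chr2:167542803-167545001), and it was called in all 4 libraries, with a scaled pileup of 0.872 and 3.39 in LP against 3.48 and 6.45 in HP. Both HP libraries were above both LP libraries, but LP replicate 2 and HP replicate 1 nearly met. The log2 ratio was 1.46 ± 0.54 (SE, n = 2 and 2; adjusted p = 0.0725, limma), and it was 2.00 in replicate 1 and 0.93 in replicate 2.

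Snai2 (chr16:14705852-14709385, plus strand), the Snai factor of the neural crest and melanocytes, had 1 region in its whole window, at the start, and each library called it (chr16:14705454-14706364). The scaled pileup was 1.83 and 2.80 in LP against 2.00 and 6.52 in HP. The groups overlapped, since HP replicate 1 lay below LP replicate 2. The log2 ratio was 0.67 ± 0.54 (SE, n = 2 and 2; adjusted p = 0.288, limma), with a 95% interval from −0.39 to 1.74, and it was −0.18 without HP replicate 2. The direction at Snai2 thus rested on that library.

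Cdh2 (chr18:16588877-16809246, minus strand), the cadherin of mesenchymal and neural crest cells, had a promoter region with a scaled pileup of 3.84 and 2.74 in LP against 5.92 and 5.75 in HP (chr18:16806718-16809964). The groups did not overlap, and the HP replicates were close to each other. The log2 ratio was 0.85 ± 0.54 (SE, n = 2 and 2; adjusted p = 0.205, limma), near the median of all regions. Cdh2 was the 1 gene of the 10 with more window peaks in both HP libraries (13 and 13) than in both LP libraries (4 and 7), an order seen at 17.7% of coding genes. The reverse order, seen at 6.95%, was found at 0 of the 10. Away from the promoter, its intronic region 69.3 kb from the start (scaled pileup 1.57 and 1.82) and the region at the end of its 3′ UTR (0.697 and 1.82) were called in both HP libraries and in neither LP library.

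Tead1 (chr7:112679318-112906807, plus strand) held 71 of the 166 regions. Its promoter region (chr7:112678429-112680294), which also covers the start of the noncoding gene 2310014F06Rik, had scaled pileups of 3.84 and 2.80 in LP against 6.27 and 9.19 in HP. This was the highest promoter of the 10 genes in both HP libraries, at percentiles 71.0 and 66.1. The groups did not overlap, with a log2 ratio of 1.21 ± 0.54 (SE, n = 2 and 2; adjusted p = 0.109, limma).

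Within the introns of Tead1, 3 regions were called in all 4 libraries. The region 41.4 kb from the start (chr7:112720133-112721379) had scaled pileups of 0.959 and 1.56 in LP against 2.96 and 5.40 in HP, a log2 ratio of 1.71 ± 0.54 (SE, n = 2 and 2; adjusted p = 0.0489, limma). It had similar ratios in both replicates, 1.63 and 1.79, and it was the 1 region of the 10 genes that passed the adjusted threshold of 0.05. This call did not hold with the replicate number as a block (adjusted p = 0.0621), with each library centred on its median (log2 ratio 0.70, adjusted p = 1.00), or without LP replicate 1 (adjusted p = 0.425), LP replicate 2 (0.313) or HP replicate 2 (0.237). Over 10 alternatives its adjusted p ran from 0.00105, without HP replicate 1, to 1.00, and its log2 ratio from 0.65 to 2.14.

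The intronic region 18 kb from the start of Tead1 had scaled pileups of 0.959 and 0.912 in LP against 1.48 and 2.74 in HP, a log2 ratio of 1.11 ± 0.54 (SE, n = 2 and 2; adjusted p = 0.128, limma). The region 144 kb from the start had the lowest ratio of the 10, with 1.05 and 0.716 in LP against 1.31 and 1.33 in HP, a log2 ratio of 0.61 ± 0.54 (SE, n = 2 and 2; adjusted p = 0.33, limma). Both HP libraries and neither LP library called 4 Tead1 regions. Of those away from the promoter, the region 39.4 kb from the start, close to the 41.4 kb region, had 1.04 and 2.10 in HP, and the region 88.3 kb from the start had 1.13 and 1.05.

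**Figure D2:**
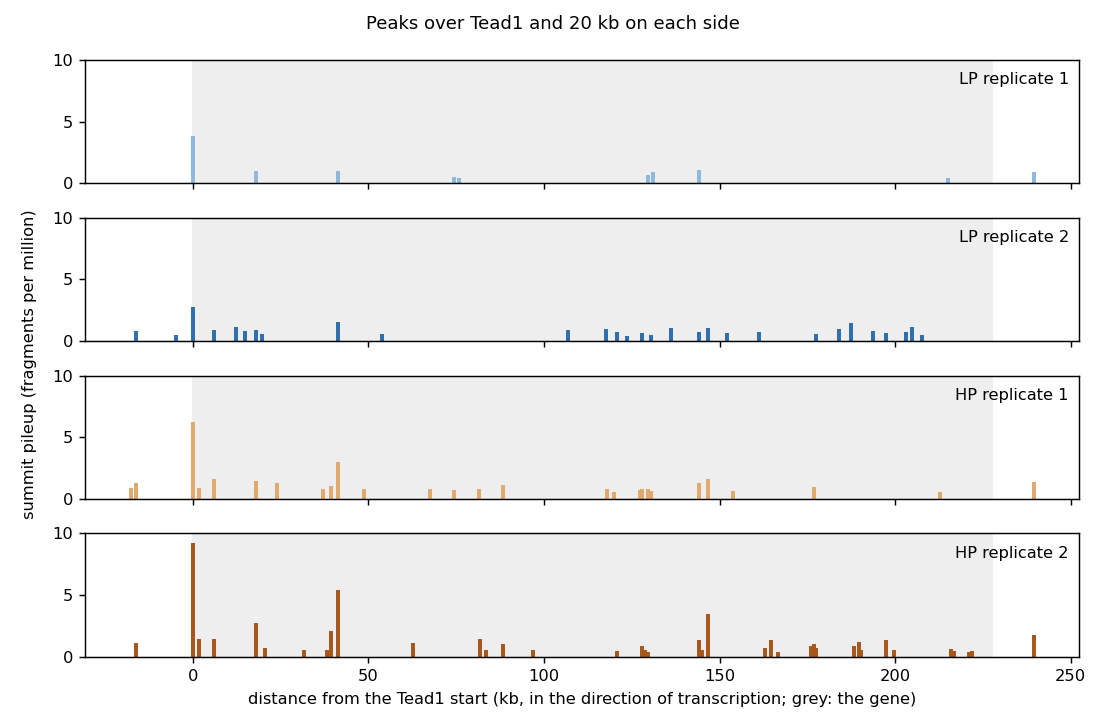
Scaled summit pileup of each region over Tead1 and 20 kb on each side, by distance from the gene start in kb, with 1 panel for each library and the gene in grey. The promoter and the region 41.4 kb into the gene are called in all 4 libraries, at 6.27 and 2.96 in HP replicate 1 and at 9.19 and 5.40 in HP replicate 2.

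Ccn1 (chr3:145646976-145649981, minus strand) carried several regions around its start, where the noncoding gene Gm17501 also begins. The region that holds the start (chr3:145648620-145650431) had scaled pileups of 2.27 and 1.56 in LP against 2.79 and 5.40 in HP, a log2 ratio of 1.04 ± 0.54 (SE, n = 2 and 2; adjusted p = 0.143, limma). A second region centred 3.1 kb upstream (chr3:145652197-145654018) had 4.19 and 1.56 in LP against 4.27 and 6.73 in HP, a log2 ratio of 1.07 ± 0.54 (SE, n = 2 and 2; adjusted p = 0.137, limma). Its peaks in both LP replicates lay more than 3 kb from the start and are therefore not among the promoter peaks, whereas those in HP are. The log2 ratio of the upstream region was 0.03 in replicate 1 and 2.11 in replicate 2. Between these, a region 0.94 kb upstream was called in HP only, with 0.697 and 3.16. The 150 bases around the upstream summit in HP replicate 2, chr3:145653580-145653729 on the minus strand, are shown beside the start of this Hippo target.
Ccn1 upstream: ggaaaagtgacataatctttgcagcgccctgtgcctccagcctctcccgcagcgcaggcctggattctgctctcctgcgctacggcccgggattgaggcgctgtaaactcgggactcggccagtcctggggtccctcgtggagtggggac
It held none of the motifs. Among the 12080 summit windows of this length in regions called in all 4 libraries, 4.78% held the TEAD motif. The stretch before the start, which held this motif, is longer (250 bases). The 300 bases around the summit of the start region held no TEAD match either.

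Over the 10 genes, 10 regions (6.02%) were called in all 4 libraries, against 6.6% of all merged regions, and 125 (75.3%) in 1 library, against 81.7%. Both HP libraries were above both LP libraries in 8 of the 10 common regions, an order found in 74.8% of all regions tested, and 0 had the reverse order, found in 0.141%. At the adjusted threshold limma called 1 of the 10 higher in HP (4.01% over all regions) and 0 lower (0 over all regions). At an unadjusted p under 0.05, 5 were higher and 0 lower, against 36.2% and 0 over all regions. Their median log2 ratio was 1.06, with a range from 0.61 to 1.71, beside 0.92 over all regions. Relative to the median of each library, it was 0.044. Without HP replicate 1, 8 of the 10 and 6930 of all 12084 regions were called higher, and with any other library left out 0 of the 10 were. The median of the 10 regions was 0.47 in replicate 1 and 1.64 in replicate 2, the same order of replicates as over all regions. With 2 replicates against 2, an exact two-sided permutation test cannot go below p = 0.333, and in a mixed population fewer acetylated cells and less acetylation per cell cannot be told apart.

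**Figure D3:**
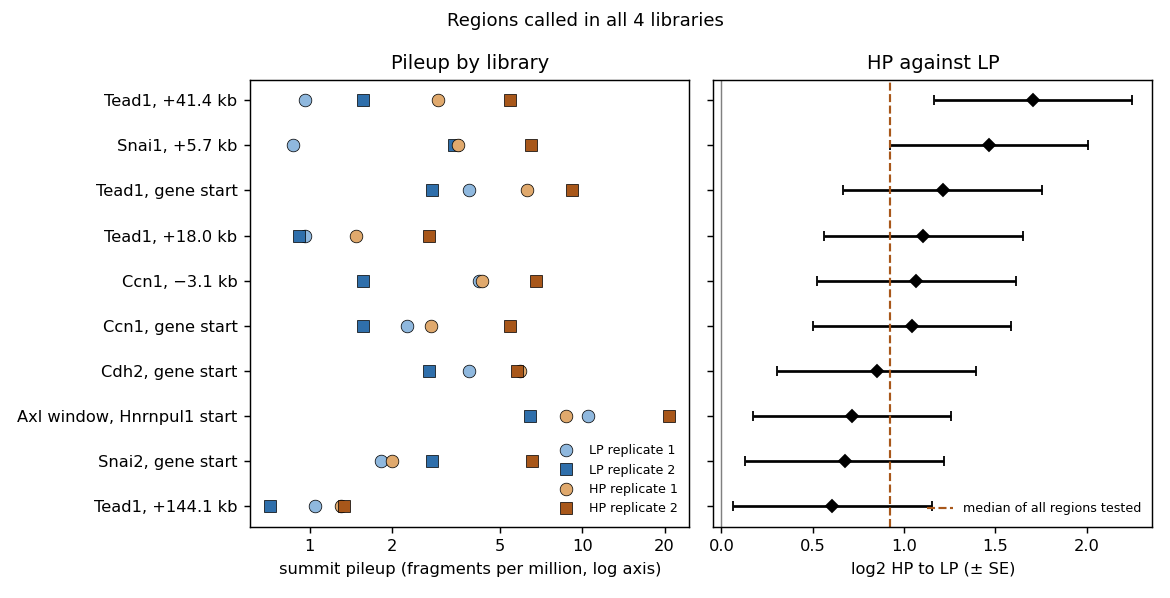
The 10 regions called in all 4 libraries: left, scaled summit pileup in each library on a log axis, and right, the log2 ratio of HP to LP with its standard error, with the median of all regions tested as a dashed line. The ratios run from 0.61 to 1.71, and every standard error is 0.54.

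Both HP libraries and neither LP library called 9 of the 166 regions (5.42%), against 3.94% of all merged regions, and they lay at Tead1 (4), Cdh2 (3), Ccn1 (1) and Zeb1 (1). Both LP libraries and neither HP library called 0, against 0.249%. Of the 166 regions, 13 were called in 3 libraries, and all 13 lacked a peak in an LP library, a pattern found in 3.62% of all merged regions. LP replicate 1 was the library without a peak at 9 of the 13, and at 5377 of the 6625 regions with this pattern among all merged regions. None of the 13 lacked a peak in an HP library, a pattern found in 0.17% of all merged regions. Over all regions called in 3 libraries 95.5% lacked a peak in LP. The whole windows held 30 and 70 peaks in LP against 68 and 81 in HP, so that LP replicate 2 was nearer to the HP libraries than to LP replicate 1. Tead1 alone held 10 and 30 of these peaks in LP and 28 and 39 in HP. The same pattern was found over all coding genes, with a mean per window of 2.88 and 3.93 in LP against 3.92 and 4.43 in HP. Without LP replicate 1, 13 regions would count as called in HP only, and without LP replicate 2, 18. The shares over all merged regions were not computed without these libraries.

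A list of 39 related genes was read in the same way. Their promoters had a peak in all 4 libraries at 22 genes, in 3 at 3, in 2 at 4, in 1 at 6 and in none at 4, beside the 47.4% of coding genes with a peak in all 4 libraries. Those with none were Wnt5a, a noncanonical Wnt ligand, Loxl2, a matrix cross-linking enzyme, Nt5e, the ecto-enzyme CD73, and Ankrd1, a Hippo target. Of the 9 Hippo genes 8 were called in all 4 libraries, of the 6 neural crest genes 4, of the 6 EMT and junction genes 3, and of the 18 receptors, ligands and matrix genes 7. Of the 22 promoters tested, limma called 0 in either direction after adjustment. Before adjustment, 9 were higher and 0 lower at p under 0.05, beside 36.2% and 0 over all regions. Their median log2 ratio was 1.04, beside 0.92 over all regions.

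The highest ratios among the related genes were at Amotl2, a regulator of Yap1 (1.5, adjusted p = 0.0678), Sparc, a matrix protein gene (1.34, adjusted p = 0.0889), and Pax3, a melanocyte lineage factor (1.34, adjusted p = 0.0895), all from limma. The lowest were at the integrin gene Itgb1 (0.37, adjusted p = 0.535), the TGF-β mediator Smad3 (0.42, adjusted p = 0.477) and Ccn2, the paralogue of Ccn1 (0.64, adjusted p = 0.308). None of these 6 ratios passed the threshold.

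Relatives of the members, picked after their values were seen, carried different levels. Zeb2 had scaled pileups of 6.80 and 6.12 in LP against 9.58 and 13.5 in HP at its promoter region, where Zeb1 had a peak in LP replicate 2 only. Twist2 had, like Twist1, a promoter peak in LP replicate 2 only (0.716). Cdh1, which encodes E-cadherin, had one in LP replicate 1 only (1.13), where Cdh2 was called in every library. Tyro3, of the receptor family of Axl, had 2.62 and 2.48 in LP against 5.05 and 3.65 in HP, and the ligand gene Gas6 had a promoter peak in HP replicate 1 only (1.13).

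**Figure D4:**
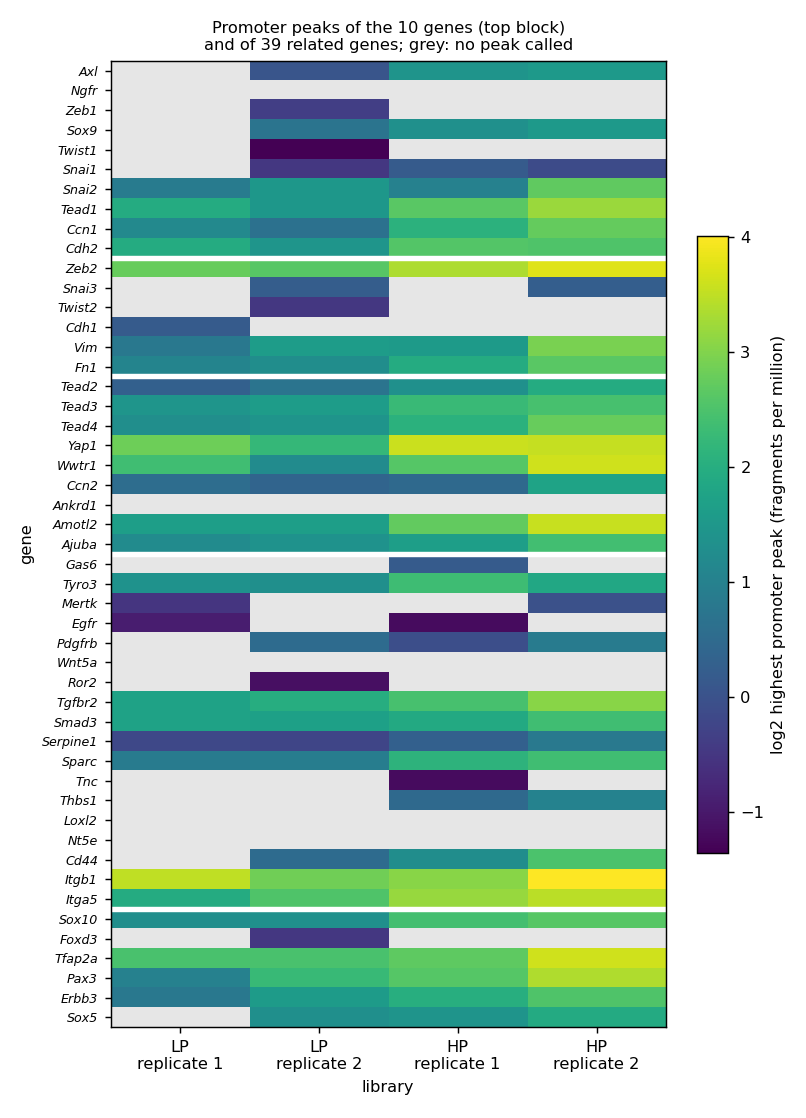
Log2 scaled pileup of the highest promoter peak for the 10 genes (top block) and 39 related genes (lower blocks: EMT and junction, Hippo, receptors and matrix, neural crest) in each library, with grey where no peak was called. Ngfr, Ankrd1, Wnt5a, Loxl2 and Nt5e are grey in all 4 libraries. The Ccn1 values are of the region at its start in LP and of a region further upstream in HP.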

How the data were processed

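H3K27ac ChIP-seq libraries of sorted LP and HP B16 F10 cells (2 replicates each) were analysed from the deposited peak lists. The authors trimmed reads with Trimmomatic 0.33 and fastp, aligned them to mm10 with Bowtie2 2.5.1 and called narrow peaks in each library by MACS 3.0.0b1, duplicates kept, at a q-value of at most 0.05 with the IgG library of that replicate as control. The deposited pileup is a signal, the fragments covering the summit, not scaled for depth. The fold enrichment is a ratio to local background, and the −log10 p-values and q-values and the integer score are also the authors' own. Only −log10 q-values were used, as a filter.

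Pileups were scaled by library depth (11467942 to 15353176 fragments) to 1000000 fragments. Peaks sharing at least 1 bp were merged, and the highest summit was taken for each library. Genes and transcripts were those of GENCODE for GRCm38, the assembly of mm10, and a region lay at a gene when it overlapped the gene or 20 kb on either side. limma 3.58.1 in R 4.3.3 compared log2 pileups over the 12084 regions called in all 4 libraries, with Benjamini-Hochberg adjustment at 0.05. The prior degrees of freedom were infinite, so every region has 1 standard error. The labels do not say that replicates were separate cultures, so p-values measure the spread between these libraries. The fit had no replicate block. A fit with the block was an alternative, since the labels describe replicate sets and each has its own IgG library, and replicate differences in LP and HP correlated at 0.0153 over regions. DiffBind needs alignments, which were not used here.

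The members and lists were chosen with earlier results of these data known. All 10 genes are named. Away from promoters, up to 3 regions called in all 4 libraries and up to 2 called in both libraries of 1 population only are named for each gene. Related genes are named where no library had a promoter peak or for the 3 highest and 3 lowest ratios. The Ngfr region 16.7 kb into the gene and the Zeb1 region 74.3 kb from its start fall outside this rule. Other exceptions are said to be picked after their values were seen. Sequences came from the RefSeq table of GRCm38.p6, which held 5 of the 10 genes (Sox9, Snai2, Tead1, Zeb1 and Cdh2 are named only), or from the genome by samtools 1.23.1 coordinates. Merging, limma and the motif search were tested on simulated data. Tables and plots used pandas 2.3.3, matplotlib 3.10.9, numpy 2.4.6 and scipy 1.17.1 under Python 3.11.15.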

Additional observations from a re-analysis of the deposited data

How the results depend on the processing

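The count of regions higher in HP depended on the settings, both over all regions (485) and at the 10 genes (1). Centring on library medians and quantile normalization each gave 0 and 0, and the median log2 ratio of the 10 regions was then 0.044 and 0.043. Scaling to fragments times fragment length gave 9 and 0, the mean of the summit pileups 0 and 0, and the replicate block 88 and 0. A q-value of at most 0.01 gave 332 and 0. With 50 kb on each side, 18 regions at the 10 genes were tested, and 2 of these were called higher. Leaving out a library moved the counts between 0 and 6930 and between 0 and 8, the highest values being those without HP replicate 1. No region of the 10 genes was called lower at the adjusted threshold under any of these settings. Centring turned the log2 ratio to −0.30 at the Hnrnpul1 region, −0.34 at Snai2, −0.40 at the Tead1 region 144 kb from the start and −0.16 at Cdh2, and quantile normalization to −0.39 at Snai2, −0.30 at that Tead1 region and −0.11 at Cdh2. With single libraries left out, the ratio ran from −0.18 (without HP replicate 2) to 1.53 (without HP replicate 1) at Snai2, and between the same libraries from 0.08 to 1.34 at the Hnrnpul1 region, from 0.57 to 1.52 at the Ccn1 start region and from 0.66 to 1.55 at the Tead1 region 18 kb from its start. It ran from 0.49 (without LP replicate 1) to 2.44 (without LP replicate 2) at the Snai1 3′ region, and from LP replicate 2 left out to LP replicate 1 left out it ran from 0.36 to 1.78 at the upstream Ccn1 region and from 0.33 to 0.88 at the Tead1 region 144 kb from the start.

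Genes with no promoter peak numbered 2 in place of 1 at q-values of at most 0.01 and 0.001, and between 1 and 3 with libraries left out, 3 being without LP replicate 2 or replicate 2. Genes with a promoter peak in every library numbered 4 to 7, the latter without LP replicate 1 or replicate 1. Regions called in HP only (9) numbered 54 without replicate 1, 50 without replicate 2, 13 without LP replicate 1 and 18 without LP replicate 2, and regions called in LP only 40 and 14 without either replicate, since single lists are then compared. The cause of the other changes was not tested. For these settings the shares over all merged regions and over all coding genes were not computed. The counts of promoter peaks and of HP-only regions without a single LP library, and the median without the Hnrnpul1 region, were chosen after seeing the data. A summit of fewer than 5 fragments was not called in any library. The part of depth in the absent peaks was not tested. LP replicate 1 and HP replicate 1 were of similar depth (11467942 and 11483830 fragments), with 57942 and 64759 peaks. The IgG control held 8701778 fragments in replicate 1 and 19358733 in replicate 2.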

Other observations

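With 50 kb on each side, the windows gained 1 called region, 44.7 kb upstream of the Ngfr start (chr11:95630700-95634181), with a scaled pileup of 1.22 and 1.43 in LP against 3.05 and 5.96 in HP. Its log2 ratio was 1.69 ± 0.54 (SE, n = 2 and 2; adjusted p = 0.0494, limma), while Ngfr itself had no promoter peak. Whether this region overlaps the promoter of another gene was not tested. Of the other 9 settings run on these regions, the one without HP replicate 1 kept the call (adjusted p = 0.000916) and the others lost it. Its adjusted p was then 0.0623 with the replicate block, 0.0668 with scaling to fragments times fragment length, 0.144 with the mean of the summit pileups, 0.248 to 0.425 without any other library, and 1.00 with centring or quantile normalization.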
